A study of Mus musculus and Mus musculus musculus x Mus musculus castaneus with 8 samples.

Results

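The newly opened promoter peaks are sites of open chromatin that were called at gene promoters in mouse nuclei 48 h after nuclear transfer (NT) into Xenopus oocytes and that had no peak nearby in the donor cells. The assay was ATAC-seq, in which a transposase inserts adaptors into accessible DNA so that reads pile up at open sites. The 224 members were chosen by the study's table of newly opened genes: all peaks that it marks as promoter, except that of Utf1, with Hox genes also left out by the rule although none is marked promoter in the copy used. Each of the 224 was found at its exact position among the 8257 peaks of the list after NT, and together they belong to 218 genes. The values that chose them were the presence of a peak after NT, its position at a transcription start site (TSS) and a distance of at least 5000 bp from every donor peak. These values are therefore given as a description and without a test.

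The donor cells were mouse embryonic fibroblasts (MEFs) from embryos of a Mus musculus musculus and Mus musculus castaneus cross, permeabilized for NT (1 library). The list after NT stands for 2 libraries of such MEFs 48 h after transplantation into Xenopus laevis oocytes, and the Toca1 list for 1 library of the same kind, except that the recipient oocytes overexpressed Toca1, a factor that enhances actin polymerization. These libraries were made from 3000 cells each, and those after NT came from pooled oocytes. The C2C12 list stands for 2 libraries of 50000 cultured myoblasts of the C3h strain, which received no NT. The authors deposited 1 peak list per condition, of 8257 peaks after NT, 16412 with Toca1, 52697 in C2C12 cells and 39592 in donor MEFs. The lists hold positions only. Depth, signal and the spread between replicates are therefore unknown, the labelled cell types could not be checked against marker levels, and a longer list can come from a deeper library. Intervals below are 95% Wilson intervals over peaks, and Newcombe intervals for differences, and they cover counting error alone. What Toca1 or the cell type changed cannot be told apart from differences between libraries in depth or quality.

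A promoter is the DNA around a TSS, where transcription factors and RNA polymerase II assemble. In somatic cells, promoters of widely used genes are usually free of nucleosomes, whereas promoters of developmental regulators and of genes for other cell types are often packed into closed chromatin. The oocyte holds a large maternal store of transcription factors and chromatin remodellers, and somatic nuclei placed in it neither replicate their DNA nor divide. A peak that appears at a promoter under these conditions marks access for the transposase and does not show that the gene was transcribed.

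The sequence before the start of 8 of the genes is printed to show what kinds of promoter the list holds, from that of Nodal, a signal of the early embryo, to that of Psmd12, a proteasome gene. They were picked from the gene groups below so that each overlap class of the peaks is represented. Each run is the 250 bases before the RefSeq start, 5′ to 3′ on the strand of the gene in build GRCm38.p6, matched by gene symbol. The peaks are in build mm9, so the runs were not placed against the peaks by position. Capitals mark matches on either strand to 7 motifs: CCAAT for the CCAAT box, GGGCGG for the GC box, TATAAA for the TATA box, AGGTCA for nuclear receptors, GATAAG for GATA factors, TGACGTCA for the cAMP response element and CCGGAAGT for ETS factors. Neighbouring matches can share bases, as the GC boxes of Nras do.
Nodal (chr10:61417722-61417971, plus strand): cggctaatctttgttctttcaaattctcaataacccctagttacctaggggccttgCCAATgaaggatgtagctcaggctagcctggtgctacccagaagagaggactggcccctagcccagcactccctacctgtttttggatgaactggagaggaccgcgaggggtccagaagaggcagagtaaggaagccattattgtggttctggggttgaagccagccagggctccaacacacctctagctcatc
Fgf4 (chr7:144861136-144861385, plus strand): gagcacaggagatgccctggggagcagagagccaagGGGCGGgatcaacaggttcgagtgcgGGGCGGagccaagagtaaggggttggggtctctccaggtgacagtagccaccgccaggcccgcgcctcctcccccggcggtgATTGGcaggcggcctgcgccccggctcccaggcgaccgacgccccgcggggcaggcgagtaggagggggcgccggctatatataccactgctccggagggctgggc
Myb (chr10:21160985-21161234, minus strand): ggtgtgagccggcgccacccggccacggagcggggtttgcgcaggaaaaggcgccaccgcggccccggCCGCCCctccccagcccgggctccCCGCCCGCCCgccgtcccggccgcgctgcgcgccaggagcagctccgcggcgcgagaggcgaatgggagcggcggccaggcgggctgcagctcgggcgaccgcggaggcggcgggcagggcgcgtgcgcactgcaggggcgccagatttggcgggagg
Fgf5 (chr5:98253934-98254183, plus strand): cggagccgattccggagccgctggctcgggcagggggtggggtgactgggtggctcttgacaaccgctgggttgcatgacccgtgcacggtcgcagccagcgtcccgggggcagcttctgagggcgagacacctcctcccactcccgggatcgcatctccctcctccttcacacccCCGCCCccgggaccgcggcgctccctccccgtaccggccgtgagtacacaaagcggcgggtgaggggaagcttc
Pdx1 (chr5:147269847-147270096, plus strand): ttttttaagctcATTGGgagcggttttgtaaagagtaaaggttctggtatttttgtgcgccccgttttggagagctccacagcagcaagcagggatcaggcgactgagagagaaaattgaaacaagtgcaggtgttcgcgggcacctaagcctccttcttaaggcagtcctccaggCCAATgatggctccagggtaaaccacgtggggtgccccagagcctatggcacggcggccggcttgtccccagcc
Areg (chr5:91139349-91139598, plus strand): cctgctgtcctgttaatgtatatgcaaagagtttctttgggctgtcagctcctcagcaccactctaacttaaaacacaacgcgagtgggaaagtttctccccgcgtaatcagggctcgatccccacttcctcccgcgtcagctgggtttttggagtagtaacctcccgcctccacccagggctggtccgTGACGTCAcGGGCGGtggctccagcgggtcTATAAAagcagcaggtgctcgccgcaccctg
Nras (chr3:103058035-103058284, plus strand): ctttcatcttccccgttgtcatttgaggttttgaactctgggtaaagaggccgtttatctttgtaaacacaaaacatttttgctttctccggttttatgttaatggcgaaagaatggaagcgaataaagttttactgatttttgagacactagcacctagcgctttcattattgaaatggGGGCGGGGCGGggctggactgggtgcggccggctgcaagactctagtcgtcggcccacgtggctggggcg
Psmd12 (chr11:107479278-107479527, plus strand): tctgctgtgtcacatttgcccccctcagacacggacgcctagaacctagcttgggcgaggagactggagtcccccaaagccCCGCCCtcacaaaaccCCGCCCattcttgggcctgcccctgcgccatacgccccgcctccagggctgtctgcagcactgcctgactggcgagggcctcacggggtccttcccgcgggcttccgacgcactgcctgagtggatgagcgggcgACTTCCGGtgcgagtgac

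Of all 32851 such runs in the RefSeq table, 33.8% held a CCAAT box, 32.7% a GC box, 12.4% a TATA box, 14.0% the nuclear receptor motif, 6.55% the GATA motif, 2.88% the ETS motif and 1.55% the cAMP response element. The run of Areg carried the cAMP response element, a GC box and a TATA box in this order, starting 61, 52 and 31 bases before the start. That of Psmd12 carried 2 GC boxes and an ETS motif 18 bases before the start. CpG dinucleotides, the usual targets of DNA methylation in mammals, numbered 40 in the run of Myb and 3 in that of Nodal, the extremes of the 8, and GC content ranged from 48.4% for Nras to 81.2% for Myb. A match is a description of the letters only. A window was found for 158 of the 218 genes (72.5%). With the other genes lacking a window, a comparison of sequence features between the members and all promoters was taken as void and is not given.

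Newly opened promoter peaks were found again with Toca1 more often than other newly opened sites. A peak of the Toca1 list overlapped 101 of the 224 by at least 1 bp (45.1%, interval 38.7% to 51.6%). Of all 3146 newly opened peaks 16.5% were overlapped, and of all 8257 peaks after NT 44.3%. The share at newly opened promoters was thus close to that of all peaks after NT. Peaks inside the bodies of newly opened genes had the same minimum distance to donor peaks, and 45 of 310 were overlapped (14.5%, interval 11.0% to 18.9%). The difference between promoter and gene-body peaks was 30.6 percentage points (interval 22.8 to 38.0). The promoter peaks found again included those of Kit, the receptor of stem cell factor, Myb, a transcription factor of blood progenitors, and Wnt9b, a secreted WNT ligand.

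The C2C12 list gave a difference of the same kind. A peak from 50000 C2C12 cells, which never entered an oocyte, overlapped 79 of the 224 promoter peaks (35.3%, interval 29.3% to 41.7%). The share was 8.23% among all newly opened peaks, 50.6% among all peaks after NT and 4.84% among gene-body peaks (15 of 310, interval 2.95% to 7.83%). Promoter peaks exceeded gene-body peaks by 30.4 percentage points (interval 23.8 to 37.2). The 79 included the promoters of Nras, a small GTPase of growth signalling, and Ahr, the receptor of dioxin. When each peak had to cover at least 50% of the other, the differences were 12.9 points for Toca1 (interval 7.11 to 19.0) and 14.6 for C2C12 (interval 9.75 to 20.1). With the C2C12 list from 1000 cells, 8 promoter peaks were overlapped (3.57%), and the difference of 1.96 points had an interval that included 0 (-0.781 to 5.40). That list overlapped few peaks of any set, with 8.56% of all peaks after NT. Of peaks on a donor MEF peak it overlapped 16.1%, against 92.2% for the list from 50000 cells.

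**Figure D1:**
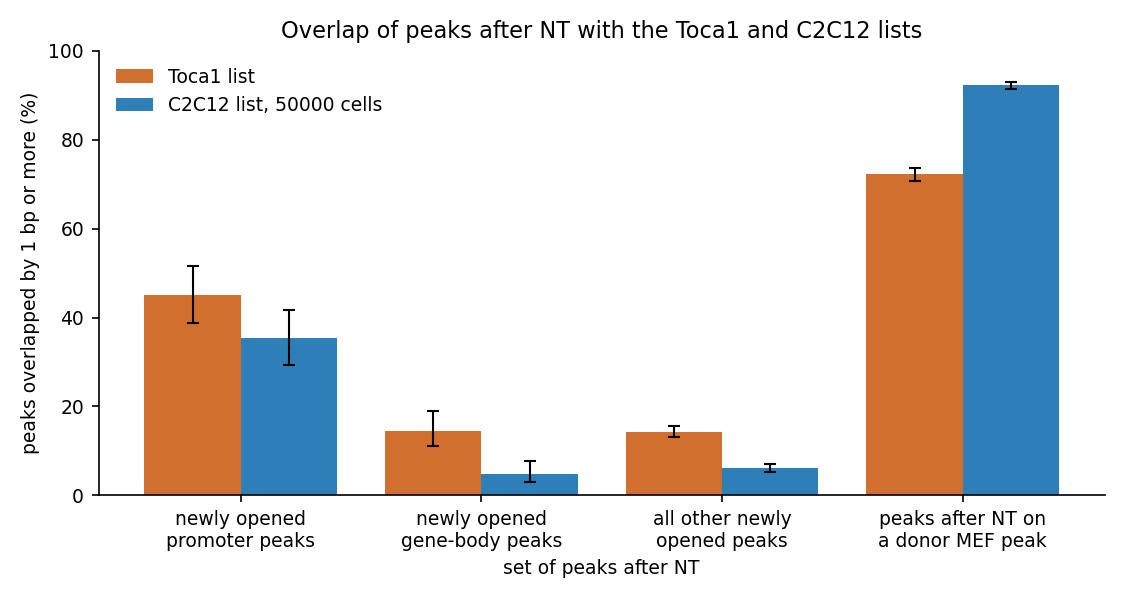
Share of peaks after NT (%, y axis) overlapped by at least 1 bp by a peak of the Toca1 list or of the C2C12 list from 50000 cells, for 4 sets of peaks (x axis); error bars are 95% Wilson intervals. Newly opened promoter peaks stand at 45.1% and 35.3%, above the 14.5% and 4.84% of gene-body peaks and below the 72.2% and 92.2% of peaks that lie on a donor MEF peak.

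The 2 lists divided the promoter peaks into 4 classes. Both lists overlapped 47 of them (21.0%), the Toca1 list alone 54 (24.1%), the C2C12 list alone 32 (14.3%) and neither list 91 (40.6%). These counts rest on an overlap of 1 bp: when each peak had to cover at least 50% of the other, 15 were in both lists and 158 in neither. Promoter peaks present in C2C12 cells were found again with Toca1 in 47 of 79 cases (59.5%, interval 48.5% to 69.6%) and the others in 54 of 145 (37.2%, interval 29.8% to 45.3%). These intervals do not overlap. The same split was found among all other newly opened peaks, with 88 of 180 (interval 41.7% to 56.1%) against 331 of 2742 (interval 10.9% to 13.3%). It was therefore not particular to the members, although the other peaks are not shown to be free of promoters. Among gene-body peaks the shares were 3 of 15 (interval 7.05% to 45.2%) and 42 of 295 (interval 10.7% to 18.7%). Those intervals overlap, and 15 peaks are too few to show whether the split holds in gene bodies. Of the 2922 other newly opened peaks, both lists overlapped 88 (3.01%), the Toca1 list alone 331 (11.3%) and the C2C12 list alone 92 (3.15%). Neither list overlapped 2411 (82.5%). The 4 classes were not counted over all peaks after NT, nor for other peaks under the 50% rule.

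The genes were sorted by textbook function into 16 groups that hold 122 of the 218 genes and 125 of the 224 peaks. The largest group was machinery that nearly all cells use, with 19 genes and 1 peak each. A C2C12 peak overlapped 16 of these 19 promoters (84.2%, interval 62.4% to 94.5%), and a Toca1 peak overlapped 13 (68.4%, interval 46.0% to 84.6%). Of the 205 peaks outside this group, 63 (30.7%) and 88 (42.9%) were overlapped. The difference was 53.5 percentage points for C2C12 (interval 30.7 to 65.3) and 25.5 for Toca1 (interval 2.06 to 43.0). The groups were chosen with the members and earlier results known, and other widely used genes may be among the 205 peaks. These differences and intervals therefore only describe the genes chosen. Both lists overlapped the promoters of Psmd12 (a subunit of the 26S proteasome), Mrpl9 (a mitochondrial ribosomal protein), Srp72 (a protein of the signal recognition particle), Eif4a2 (a helicase of translation initiation), Vps29 (a retromer subunit), Ndufa1 (a subunit of respiratory complex I), Rbm22 (a splicing factor), Cyb5b, Lrrc59, Mocs3 and Nsun5. The C2C12 list alone overlapped Commd2, Dph7, Gpatch4, Nipsnap1 and Prpsap1, the Toca1 list alone Atad5 and Cwf19l1, and neither Ssna1.

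The housekeeping promoters that had no donor peak nearby lay from 5972 bp (Psmd12) to 35415 bp (Cyb5b) from the nearest donor peak, with a median of 13629 bp. Over the other 205 members the median was 27865 bp. At Psmd12, on chromosome 11 from 107340670 to 107341357, the peak after NT was 688 bp wide, the Toca1 peak 585 bp and the C2C12 peak 608 bp. At Srp72, on chromosome 5 from 77403719 to 77404030, the peak after NT was 312 bp wide and lay wholly inside a Toca1 peak of 602 bp and a C2C12 peak of 829 bp. Both sites were thus called after NT, with Toca1 and in 50000 C2C12 cells, but not in the donor list. That list stands for 1 library of unknown depth, so a missed call there cannot be told apart from closed chromatin.

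**Figure D2:**
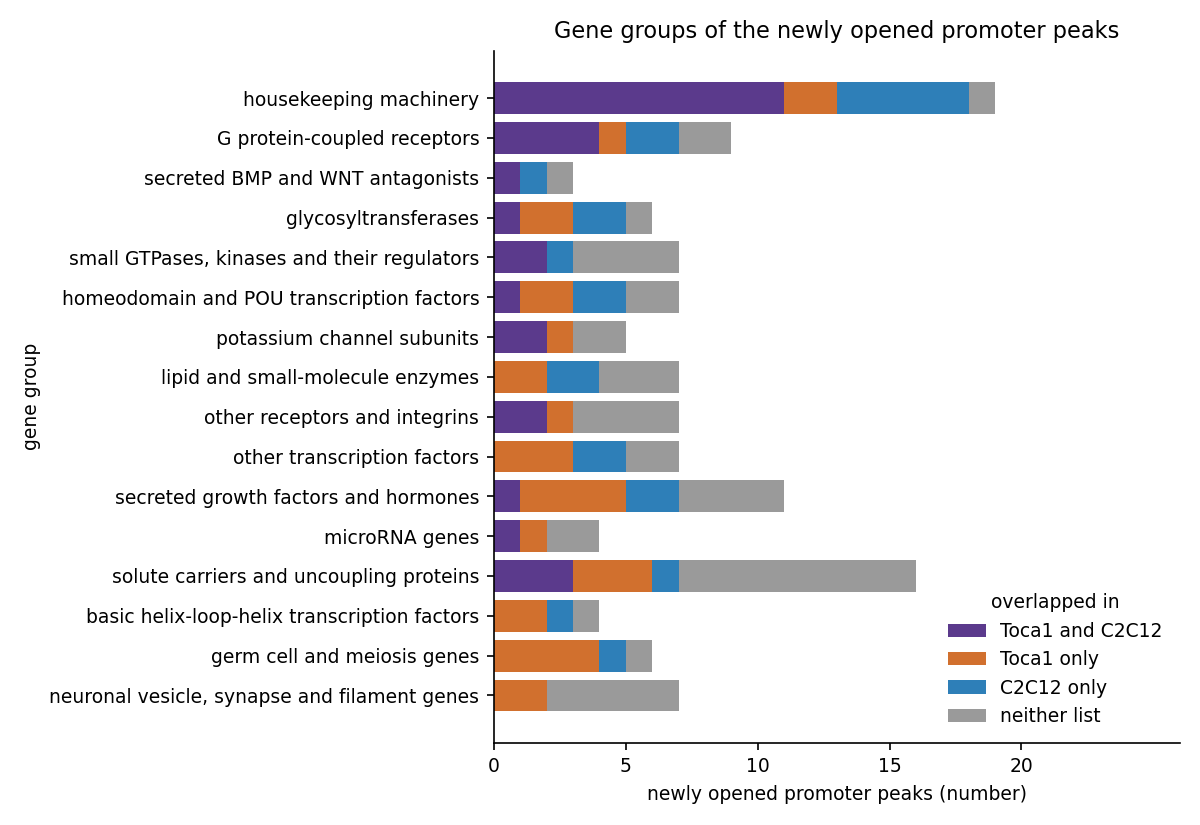
Number of newly opened promoter peaks (x axis) in each of the 16 gene groups (y axis), coloured by the lists whose peaks overlap them and ordered by the share overlapped in C2C12 cells. The housekeeping group stands at the top with 16 of 19 peaks overlapped in C2C12 cells. The group of neuronal vesicle, synapse and filament genes stands at the bottom with 0 of 7.

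Transcription factors, many of them known for specifying tissues, formed the next set, with 18 genes and 18 peaks. The Toca1 list overlapped 8 of them (44.4%, interval 24.6% to 66.3%) and the C2C12 list 6 (33.3%, interval 16.3% to 56.3%), close to the shares over all members. Meis3, a TALE homeodomain factor, was the only one of the 18 in both lists, with a 379 bp peak inside a Toca1 peak of 791 bp and a C2C12 peak of 518 bp. Those overlapped by Toca1 alone included En2 (midbrain and hindbrain patterning), Atoh7 (retinal ganglion cells), Bhlha15 (secretory cells), Myb, Rfx8 and Sox7. The peak at Myb was the widest of the set at 628 bp, on chromosome 10 from 20880543 to 20881170, and shared 572 bp with a Toca1 peak of 721 bp. The nearest C2C12 peak lay 672 bp away. At En2 the Toca1 peak was 913 bp wide but shared only 67 bp with the 241 bp peak after NT, the smallest overlap with Toca1 among all members.

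C2C12 cells alone shared Pdx1, which specifies the pancreas, Hopx, Ahr, Dach1 and E2f6. The Pdx1 peak, on chromosome 5 from 148081892 to 148082088, was 197 bp wide and wholly inside a C2C12 peak of 287 bp, and the nearest Toca1 peak was 10002 bp away. Dach1, a retinal determination factor, lay 419719 bp from the nearest donor peak and 928881 bp from the nearest Toca1 peak, yet its 196 bp peak was inside a C2C12 peak of 545 bp. Neither list overlapped Olig1 (oligodendrocytes), Pou4f2 (retinal ganglion cells), Vsx1 (retinal bipolar cells), Insm2 or Klf15. For Klf15 and Insm2 a Toca1 peak lay 172 and 439 bp away.

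Secreted signals and their antagonists contributed 13 genes and 14 peaks, of which the Toca1 list overlapped 6 (42.9%) and the C2C12 list 5 (35.7%). Fibroblast growth factors were represented by Fgf4, Fgf5 and Fgf22, and their 3 promoters fell into 3 classes. Fgf4, which early embryos use to maintain extraembryonic stem cells, had a 332 bp peak (chromosome 7, 152047011 to 152047342) that neither list overlapped, 53213 bp from the nearest donor peak. The peak of Fgf5, a marker of the primed epiblast, was 205 bp wide and inside a C2C12 peak of 828 bp. That of Fgf22, a synapse organizer, was 233 bp wide and inside a Toca1 peak of 377 bp.

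Members of the TGF-beta family and their inhibitors were also divided. Nodal, which sets up mesendoderm and the left-right axis, had a 347 bp peak (chromosome 10, 60880470 to 60880816) that no peak of either list overlapped, although a C2C12 peak lay 250 bp away. Bmp3 was overlapped with Toca1 alone, the BMP antagonist Chrd with C2C12 alone and the BMP antagonist Nbl1 with both. Among WNT genes, the ligand Wnt9b was overlapped with Toca1 and the antagonist Sfrp5 in neither list. Areg, an EGF receptor ligand, had 2 promoter peaks of 278 and 483 bp that lay 99 bp apart, and a single Toca1 peak of 826 bp covered the wider one wholly and 171 bp of the other. The hormones divided likewise: Fam132a was overlapped in C2C12 cells, and Cartpt and Rln1 in neither list.

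G protein-coupled receptors had the second highest share in C2C12 cells among groups of at least 5 genes, with 6 of 9 promoters (66.7%, interval 35.4% to 87.9%), and 5 of 9 with Toca1. The 4 overlapped in both lists were Gpr135, Gpr27 and the nucleotide receptors P2ry1 and P2ry2. At Gpr27 a peak of 206 bp lay inside a Toca1 peak of 1576 bp, the widest Toca1 peak at any member. The serotonin receptor Htr7 and the VIP receptor Vipr2 were overlapped in C2C12 cells alone, the prostaglandin receptor Ptger3 with Toca1 alone, and Ffar3 and Galr1 in neither list. Of the other receptors, the integrin subunits Itga8 and Itga9 were overlapped in both lists. Kit was overlapped with Toca1, by 176 of its 246 bp, on chromosome 5 from 75970814 to 75971059, while the nearest C2C12 peak was 251347 bp away. Gfra2, Gucy1b3, Npr1 and Tnfrsf13b were overlapped in neither.

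Among the 16 groups, transporters came second in size to the housekeeping genes, with the 18 transcription factors split over several groups. The shares of the transporters had intervals that include those over all members. Of the 16 peaks of 15 solute carrier and uncoupling protein genes, 9 were overlapped by neither list, 6 by Toca1 (37.5%, interval 18.5% to 61.4%) and 4 by C2C12 (25.0%, interval 10.2% to 49.5%). Ucp1, the uncoupling protein of brown fat, had a 233 bp peak that was 11205 bp from the nearest C2C12 peak and 41586 bp from the nearest Toca1 peak. Its relative Ucp2 had 2 peaks of 226 and 260 bp, 107 bp apart, also in neither list. The dopamine transporter gene Slc6a3 was overlapped in both lists, whereas the related Slc6a20a was in neither. Slc30a2, a zinc transporter gene, had the widest peak of all 91 members in neither list, at 818 bp. Potassium channel subunits gave 3 of 5 with Toca1 (Kcng3, Kcnmb4 and Kcns2) and 2 of 5 with C2C12 (Kcnmb4 and Kcns2).

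The germ cell group and the group of neuronal vesicle, synapse and filament genes were seldom overlapped in C2C12 cells, against 35.3% of all members. This does not extend to all genes used by neurons, since some were sorted into other groups. Of those, Slc6a3 and Htr7 were overlapped in C2C12 cells and Galr1 was not. Of 6 germ cell promoters 4 were overlapped with Toca1 alone: Ddx43, Pxt1, Syce2, a component of the synaptonemal complex, and Tdrd5, a factor of transposon silencing by piRNAs. At Tdrd5 the 329 bp peak lay inside a Toca1 peak of 1444 bp. The germ cell chaperone gene Clgn was overlapped in C2C12 cells alone, by 270 of its 357 bp, and Spata32 in neither list, with a Toca1 peak 222 bp away. None of the 7 promoters of vesicle, synapse and filament genes was overlapped by the C2C12 list from 50000 cells (0%, interval up to 35.4%). With Toca1, 2 were overlapped: Ina, an intermediate filament gene, and Syndig1l. The C2C12 list from 1000 cells did overlap Brsk1, by 457 bp, and Cplx3, by 32 bp. With so few genes per group the intervals of these groups overlap those of most others.

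Of the remaining groups, glycosyltransferases had 3 of 6 peaks overlapped in each list, lipid and small-molecule enzymes 2 of 7 in each, and signalling GTPases, kinases and regulators 2 of 7 with Toca1 and 3 of 7 in C2C12 cells. The catalytic subunit gene of protein kinase A, Prkacb, had 2 promoter peaks 31634 bp apart, and only the peak of 366 bp was overlapped, by a Toca1 peak of 1115 bp and a C2C12 peak of 1130 bp. The 96 genes in no group had 99 peaks, 42 overlapped with Toca1 (42.4%) and 28 in C2C12 cells (28.3%). They include Ezh1, a histone methyltransferase gene with a 290 bp peak found again with Toca1 alone, and Cox7a1, a respiratory chain subunit of muscle and heart, in neither list.

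MicroRNAs, short RNAs that repress mRNAs through a seed of 7 bases, had 4 members. Mir128-2, whose product is abundant in brain, was overlapped with Toca1 by 180 of its 200 bp, and Mir8109 was overlapped in both lists. Mir6995 and Mir6998 were in neither. The mature sequences of the overlapped pair are given 5′ to 3′ from RefSeq (GRCm38.p6), with the seed, bases 2 to 8, in capitals, and they do not share a seed.
mmu-miR-128-3p (from Mir128-2): uCACAGUGaaccggucucuuu
mmu-miR-8109 (from Mir8109): gCGCCGCGugccggccgcggg

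Promoter peaks were wider than other newly opened peaks, with a median of 289.5 bp (range 150 to 1002 bp) against 239 bp. For gene-body peaks the median was 241 bp. Over all 8257 peaks after NT it was 291 bp, close to that of the promoter peaks. Width differed among the classes as well. The median was 367 bp for peaks in both lists, 293 bp for Toca1 alone, 281 bp for C2C12 alone and 272 bp for neither, and the ranges overlapped. Promoter and gene-body peaks were therefore also compared within 5 classes of width. From 200 to 249 bp, 23 of 51 promoter and 12 of 95 gene-body peaks were overlapped with Toca1, a difference of 32.5 percentage points (interval 17.3 to 47.0). Promoter peaks had the higher share in all 5 classes for each list. The interval of the difference included 0 among peaks of 150 to 199 bp for both lists (-1.75 to 29.2 for Toca1 and -0.143 to 30.5 for C2C12) and among peaks of at least 400 bp for Toca1 (-0.841 to 41.9).

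**Figure D3:**
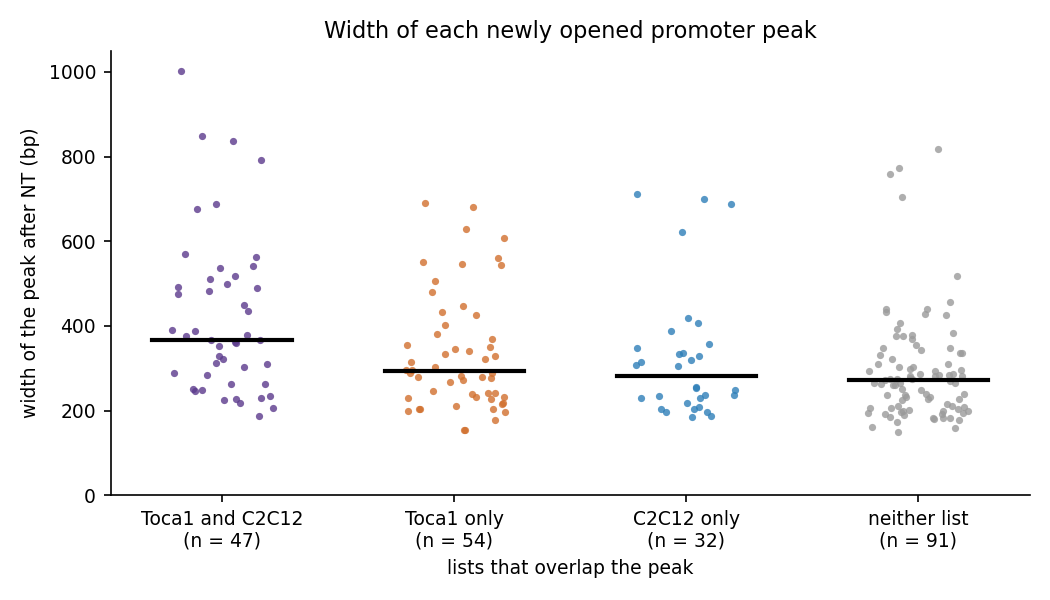
Width in bp (y axis) of each of the 224 newly opened promoter peaks, one point per peak, by the lists that overlap it (x axis); black lines are medians, which are 367, 293, 281 and 272 bp from left to right. Points are spread sideways at random for visibility, and the 4 ranges overlap.

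**Figure D4:**
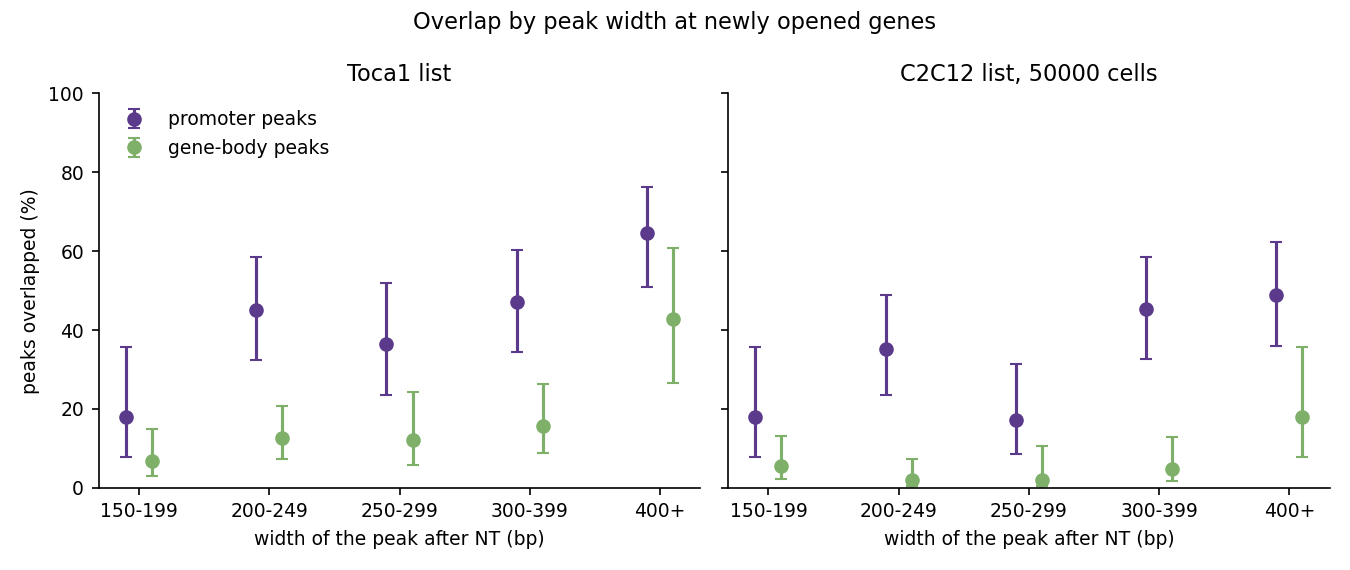
Share of peaks overlapped (%, y axis) by a Toca1 peak (left) or a C2C12 peak (right) in 5 classes of peak width in bp (x axis), for promoter and gene-body peaks of newly opened genes; error bars are 95% Wilson intervals. Promoter peaks have the higher share in each class, for example 45.1% against 12.6% at 200 to 249 bp with Toca1.

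The widest promoter peaks were not all found again. Of the 10 widest, Sh2d4a (1002 bp), Tmem9b (848 bp), B630019K06Rik (836 bp) and Rbm22 (792 bp) were overlapped in both lists, and Frmpd1 (712 bp) and Sh2b1 (700 bp) in C2C12 cells alone. Slc30a2 (818 bp), Brsk1 (772 bp), a kinase gene of neuronal polarity, Rasal1 (759 bp) and Rln1 (704 bp) were overlapped in neither list. Where a Toca1 peak overlapped a promoter peak it was usually the wider one, in 85 of 101 cases (84.2%), with a median of 624 bp against 329 bp and a median ratio of 1.90. The same held for 84.5% of all 3661 overlapped peaks after NT, whose median ratio was 1.75, close to the values at promoters. C2C12 peaks were wider in 55 of 79 cases (69.6%, median ratio 1.55), against 86.4% of all 4175 overlapped peaks after NT (median ratio 1.79) and 73.9% of other overlapped newly opened peaks.

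**Figure D5:**
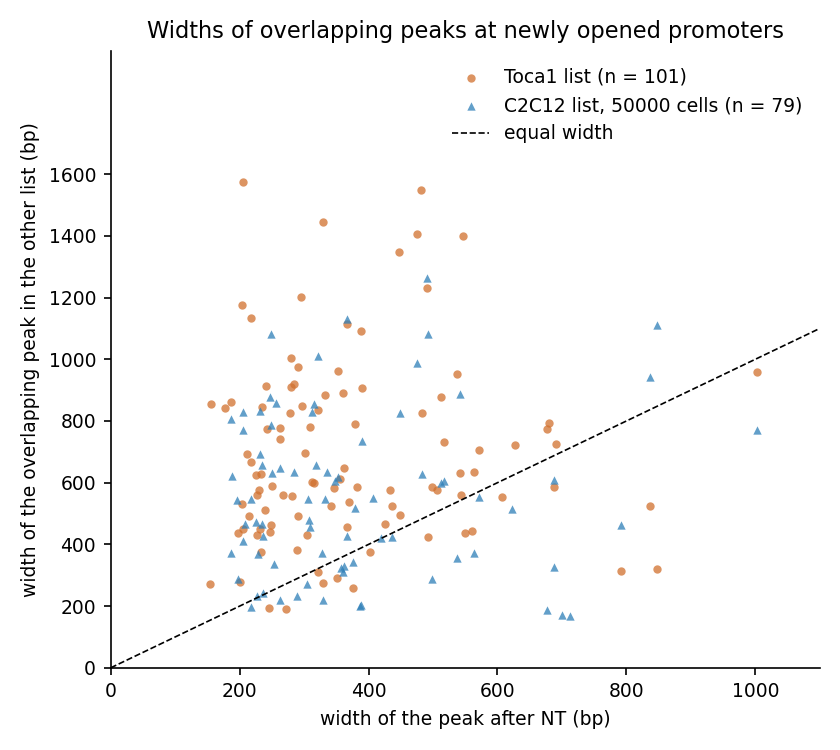
Width in bp of the overlapping Toca1 peak (101 circles) or C2C12 peak (79 triangles) (y axis) against the width in bp of the newly opened promoter peak after NT (x axis); the dashed line marks equal width. In 85 of the 101 Toca1 cases and 55 of the 79 C2C12 cases the point lies above the line.

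Many promoter peaks that were not overlapped had no called site nearby. Of the 123 without a Toca1 peak, 12 had one within 500 bp and 102 had none within 5000 bp, and the median distance was 31073 bp. Of the 145 without a C2C12 peak, 11 had one within 500 bp and 119 had none within 5000 bp. Such distances were not counted for other sets of peaks, so they are not shown to be particular to promoters. The closest misses were Alox5 and Gprin2, each 59 bp from a Toca1 peak, and Gm30498, 11 bp from a C2C12 peak. Alox5, the gene of leukotriene synthesis, was overlapped in C2C12 cells by 45 bp.

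Distances from donor peaks ranged from 5009 to 674806 bp with a median of 25410.5 bp, and 191 of the 224 peaks lay at least 10000 bp away. Of the gene-body peaks, 271 of 310 lay that far away (median 30502 bp). For the other newly opened peaks it was 2268 of 2922 (median 20222.5 bp), so such distances were not particular to promoters. Just inside the limit of 5000 bp were Aqp5 (5009 bp), Brsk1 (5047 bp) and Rimklb (5306 bp). Just outside it were peaks after NT at 4993, 4993 and 4989 bp, which are not named here. The members farthest from donor peaks were Cadps2 (674806 bp), Dach1 (419719 bp) and B630019K06Rik (306615 bp).

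The promoter peaks lay on all 20 chromosomes in the lists, from 5 on chromosome 17 to 24 on chromosome 5. There were 6 genes with 2 promoter peaks each (A230046K03Rik, Areg, Dbndd2, Prkacb, Serf1 and Ucp2). In addition, 8 pairs of genes next to each other among the members, whatever genes lie between, had promoter peaks within 100000 bp. The closest were Cfap73 and Rasal1, 14913 bp apart and both in neither list, and Tmem203 and Ssna1, 16128 bp apart. En2 and Cnpy1, 43581 bp apart on chromosome 5, differed in class, with En2 overlapped with Toca1 and Cnpy1 in neither list. Fam163a and Tdrd5, 98240 bp apart on chromosome 1, were both overlapped with Toca1 alone. Peaks in the gene body were listed as well for 13 of the 218 genes.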

How the data were processed

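ATAC-seq peaks were analysed from 5 lists, 1 per condition, that stand for 8 libraries. The authors deposited peak positions without scores, called at a false discovery rate of 0.01 by the list names. The submitters' processing notes name mm9, Bowtie2 2.2.1, Picard and MACS2 2.1. How libraries were pooled is not given in the sources used here. Lists were assigned to conditions by name, and depth is unknown.

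Promoter peaks of the study's table of newly opened genes, whose copy holds 495 genes, were matched by position to the list after NT. Genes outside this copy, which may be shorter than the study's full list, were not analysed here. Starts are 1-based, 1 bp made an overlap, and distances run between edges. Gene-body peaks were counted once per position (310 of 316 listed). Overlap counts were checked on simulated intervals. No p-value was computed, because peaks of 1 list are not replicates. The members, the gene groups and the motifs were chosen with earlier results of these data known. Genes named are those of the groups, the 10 widest peaks and genes with 2 promoter peaks. The 3 nearest to and farthest from donor peaks and pairs of neighbouring members are named too. The closest misses, Ezh1, Cox7a1, the gene-body genes and the genes of the 1000-cell list were named after their values were seen. Some genes of the groups are counted but not reported by name here. Of the 218 symbols, 209 are current and 9 are older symbols in the RefSeq gene table (build GRCm38.p6), which lists 203 as protein coding. Alternatives covered the overlap rule, peak width, autosomes, genes as units, the C2C12 list from 1000 cells and the distance limit. Python 3.11.15, scipy 1.17.1 and matplotlib 3.10.9 were used.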

Additional observations from a re-analysis of the deposited data

Results flagged for a closer look

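The C2C12 list from 1000 cells was used above only as an alternative to that from 50000 cells, and 8 of the 224 newly opened promoter peaks (3.57%, 95% Wilson interval 1.82% to 6.89%) were overlapped by one of its peaks, above the 1.34% that a count of 0 would allow, a limit that a few accidental overlaps would also pass. Its share was 8.56% among all peaks after NT and 1.61% among all other newly opened peaks (interval 1.21% to 2.13%). The genes were 2900041M22Rik, Asphd1, Brsk1, Cplx3, Entpd5, Haghl, Tmem82 and Tspyl5, of which 3 were also overlapped by the list from 50000 cells. Per the labels, DNA from 1000 cells was amplified directly, with no kit clean-up, and the part of this step was not tested.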

How the results depend on the processing

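When each peak had to cover 50% of the other, the Toca1 share of promoter peaks was 19.6% and the C2C12 share 16.5%, 15 peaks were in both lists and 158 in neither, and promoter peaks exceeded gene-body peaks by 12.9 percentage points (Toca1) and 14.6 (C2C12). With peaks at least 250 bp wide, 145 promoter peaks were left and 58 were in neither list. With the C2C12 list from 1000 cells, the share was 3.57%, 3 peaks were in both lists and the difference was 1.96 percentage points (interval -0.781 to 5.40), which includes 0. Of the 224 members, 119 also lay at least 5000 bp from every C2C12 peak of 50000 cells, which was not counted for other sets of peaks. The other 22 recomputed values stayed within the main interval, or within 1.5 times for counts, and no difference changed direction. Why values moved, beyond what each setting imposes by its construction, was not tested. A stricter peak threshold could not be run, since the lists hold no scores, and no library could be left out. No paired analysis was possible because each condition has 1 list. Without read numbers, a peak that is absent from a list is not shown to be closed.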

Other observations

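Some gene families were represented by several promoters, counted by symbol after the members were known. Of 22 Fgf genes in the RefSeq gene table, 3 had a newly opened promoter peak (13.6%), and Fgf9 had a newly opened peak in the gene body. Of 21 Slc6 genes, which transport neurotransmitters and amino acids, 3 had a promoter peak (14.3%), and Slc6a4 and Slc6a13 had one in the gene body. Of 8 P2ry genes, nucleotide receptors, 2 had a promoter peak, as had 2 of 18 Itga genes, the integrin alpha subunits, and 5 of 94 Kcn genes, the potassium channel subunits. Of 17 Galnt genes, which are glycosyltransferase genes, 2 had a promoter peak, and of 19 Sox and 19 Wnt genes 1 each. Shares were lower in larger families, with 13 of all 375 Slc genes (3.47%) and 4 of 238 Tmem genes (1.68%). Over all 21900 protein-coding genes of that table, 195 had a promoter peak under their current symbol (0.890%). The families were chosen because they hold members, so the counts are a description.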
